A study of Homo sapiens with 6 samples.

Results

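The genes described here are 9 loci tied to the mutations of A549, a human lung adenocarcinoma line: STK11, CAB39, KEAP1, CUL3, NFE2L2, SMARCA4, SMARCA2, ARID1A and MYC. They were taken by gene name from a table of 38170 annotated features, where each had 1 entry, and all 9 were among the 19620 features with enough counts to be tested. Total RNA was sequenced from A549 cells that overexpressed the long non-coding RNA LOC401312 from a piggyBac vector, which integrates its cargo by transposition, and from A549 cells with the empty vector, with 3 libraries each. No other treatment was labelled, the cells grew in serum-supplemented medium, and no label says whether a group was a pool or a clone. Nor does any label say whether the libraries of a group were grown separately, so the p-values rest on a spread that may be technical.

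The members belong to 4 systems. LKB1, encoded by STK11, is a tumour suppressor kinase that needs the pseudokinase STRAD and the scaffold MO25, encoded by CAB39, to be active, and it switches on AMPK and its relatives. KEAP1 holds the transcription factor NRF2, encoded by NFE2L2, on the CUL3 ubiquitin ligase, so that NRF2 is degraded until oxidants or electrophiles modify KEAP1. SMARCA4 and SMARCA2 are the alternative ATPases of the SWI/SNF chromatin remodelling complex, and ARID1A is a subunit that binds DNA. MYC is a transcription factor that pairs with MAX at E-box sequences and drives growth genes. A549 cells are known to carry inactivating mutations of STK11, KEAP1 and SMARCA4, and their NRF2 is therefore constantly active. Gene counts do not show whether a transcript carries such a mutation.

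Library totals were 60971105 to 73994619 counts. The check of the overexpressed gene held in every library. The STEAP1B entry on chromosome 7, which contains LOC401312, had 94628, 92527 and 90297 counts in the LOC401312 libraries, against 9, 11 and 23 counts in the vector libraries. Replicates 2 and 3 of LOC401312 carry genotype labels for different loci (LOC401313 and LOC401314), and their STEAP1B counts were close to that of replicate 1. In placental markers, given below, replicates 2 and 3 differed from replicate 1, with 3645 and 3766 counts of CGA against 25. Whether this split goes with the labels was not tested.

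Markers of other cell types differed between libraries, and their largest sums were those of placental markers in LOC401312 replicates 2 and 3. The summed level of 5 epithelial markers was 8288 to 8793 CPM (counts scaled to library size after TMM normalization) in LOC401312 and 7983 to 8660 CPM in vector, with 2 higher and none lower. That of the alveolar markers, 5 of 6 of which were in the table, was 2.27 to 2.78 CPM in LOC401312 and 1.22 to 1.43 CPM in vector. Of the 2 alveolar markers that were tested, 1 was higher. SFTPA2 had 0 counts in all libraries, and NKX2-1 had 0, 0 and 3 counts in LOC401312 and 0, 0 and 4 counts in vector. A set of 9 placental markers summed to 1.97, 97.9 and 94.5 CPM in LOC401312 replicates 1, 2 and 3. In vector they summed to 1.25 to 2.14 CPM, and 6 of the 7 tested were higher in LOC401312. A set of 9 urothelial markers summed to 19.1 to 21.6 CPM in LOC401312 and 25.5 to 29.5 CPM in vector, with 3 of 8 tested lower. Most of that sum was UPK3B, at 16.1 to 17.7 CPM over all libraries. KRT13 had 5, 0 and 0 counts in LOC401312 and 338, 253 and 286 counts in vector. For 6 fibroblast markers the sums were 23.2 to 26.5 CPM in LOC401312 and 39.9 to 69.4 CPM in vector, with 2 lower. These markers did not move together. COL1A1 and COL1A2 lay below every vector library in all LOC401312 libraries. DCN, LUM and PDGFRA lay above vector replicates 2 and 3 in all LOC401312 libraries. DCN had 1.06 to 1.73 CPM in LOC401312, against 2.76, 0.518 and 0.959 CPM in vector replicates 1 to 3. LUM had 1.60 to 2.52 CPM, against 4.67, 0.418 and 0.796 CPM. For 5 haematopoietic markers the sums were 11.5 to 13.7 CPM in LOC401312 and 11.3 to 24.5 CPM in vector. Vector replicate 1 held 256 counts of PTPRC, 653 of HBB and 55 of CD3E. No other library held more than 8 of PTPRC, 34 of HBB and 0 of CD3E. For 5 endothelial markers the sums were 1.12 to 2.59 CPM in LOC401312 and 1.60 to 2.06 CPM in vector. Only 4 endothelial and 2 haematopoietic markers had enough counts to be tested, and none of them was called. The part of these transcripts in the results below was not tested. In bulk RNA, fewer cells with a transcript and less of it per cell cannot be told apart.

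The comparison asked which of the 9 genes changed with LOC401312. CUL3, NFE2L2 and CAB39 fell to between 0.812 and 0.852 of their vector level, the other 6 did not pass the test, and none rose (1 of them, STK11, had a positive change at an unadjusted p under 0.05, and DESeq2 also called 0 higher). All 3 that fell lie on chromosome 2 and none of the other 6 does. The test was edgeR's quasi-likelihood test with Benjamini-Hochberg adjustment over all features tested, at an adjusted p of 0.05. It called 8.72% of all features, 4.58% as lower and 4.13% as higher in LOC401312. On chromosome 2 it called 27.1% of the tested features lower, and 43.8% of those with a mean of at least 4 CPM. Over all tested features, 3 of 3 members on chromosome 2 fell where 27.1% did, and 0 of 6 members elsewhere fell where 3.01% did.

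The 3 genes that fell are shown by the start of their transcription unit, as a description only. Each line gives 250 bases before and 50 after the RefSeq start nearest to the principal GENCODE transcript, 5′ to 3′, from RefSeq on GRCh38.p14. That RefSeq start lay 15 bases from the principal start in CUL3, 3 in CAB39 and 404 in NFE2L2. The NFE2L2 window therefore does not hold the start of its principal transcript. Capitals mark TGACG, the core of the cAMP response element, on either strand. CUL3 is at chr2:224585314-224585613 on the minus strand, NFE2L2 at chr2:177264678-177264977 on the minus strand and CAB39 at chr2:230712592-230712891 on the plus strand.
CUL3: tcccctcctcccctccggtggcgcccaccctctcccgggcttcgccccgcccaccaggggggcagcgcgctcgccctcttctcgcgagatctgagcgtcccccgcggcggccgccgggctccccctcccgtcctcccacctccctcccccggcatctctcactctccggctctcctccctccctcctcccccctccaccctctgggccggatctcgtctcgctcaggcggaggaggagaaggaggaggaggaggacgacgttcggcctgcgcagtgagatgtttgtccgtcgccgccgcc
NFE2L2: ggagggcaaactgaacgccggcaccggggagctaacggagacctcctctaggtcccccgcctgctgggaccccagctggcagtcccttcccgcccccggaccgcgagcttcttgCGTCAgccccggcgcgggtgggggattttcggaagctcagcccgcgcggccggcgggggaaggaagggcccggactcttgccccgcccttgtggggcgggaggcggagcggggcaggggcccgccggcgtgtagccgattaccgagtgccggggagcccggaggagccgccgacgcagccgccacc
CAB39: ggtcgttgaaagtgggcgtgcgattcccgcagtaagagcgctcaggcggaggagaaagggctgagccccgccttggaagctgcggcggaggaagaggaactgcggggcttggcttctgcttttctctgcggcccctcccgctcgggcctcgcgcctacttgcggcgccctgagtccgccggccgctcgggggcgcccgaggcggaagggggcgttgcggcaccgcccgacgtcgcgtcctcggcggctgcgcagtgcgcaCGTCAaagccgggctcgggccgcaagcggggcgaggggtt
These windows are rich in G and C, at 73.7% in CUL3, 75% in NFE2L2 and 72.3% in CAB39. The median over 35116 promoters of the same length was 58.7%. Members that were not called had 75.3% (STK11), 70% (KEAP1), 81.3% (SMARCA4), 78% (ARID1A) and 43% (SMARCA2), so the richness is not particular to genes that fell. TGACG occurred 1 time in NFE2L2, at position -136 from the RefSeq start, 1 time in CAB39, at position 10, and 0 times in CUL3. It occurred 2 times in STK11, which was not called, and 0 times in KEAP1, SMARCA4, SMARCA2 and ARID1A. The RefSeq start used lay 686 bases from the principal start in STK11, 385 in KEAP1, 205 in SMARCA4, 18 in ARID1A and 0 in SMARCA2. The start of MYC was not analysed here. Of all promoters, 24.6% held TGACG. It can share its letters with TGACNNNGC, the core of the antioxidant response element that NRF2 binds. TGACNNNGC and the E-box CACGTG, searched on both strands, had 0 matches in all 3 windows, where 13.3% and 7.26% of all promoters held them. No match says only that these letters are not in this window.

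CUL3 (ENSG00000036257; chromosome 2, 224470150 to 224585397 in GRCh38, minus strand) is the scaffold of the ligase that KEAP1 joins. It had 91.5, 90.9 and 90.9 CPM in LOC401312 replicates 1 to 3, against 113.5, 117.6 and 105.3 CPM in vector replicates 1 to 3. Every LOC401312 library lay below every vector library, and the LOC401312 libraries lay closer together. The group means were 91.1 ± 0.32 CPM in LOC401312 and 112.1 ± 6.25 CPM in vector (SD, n = 3 each). The log2 change, LOC401312 over vector, was -0.30 (standard error, SE, 0.05; adjusted p = 0.0042), a level 0.812 of that in vector (95% interval 0.754 to 0.875).

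NFE2L2 (ENSG00000116044; chromosome 2, 177227595 to 177287777, minus strand) encodes NRF2, the substrate of that ligase. Its level was 58.6, 63.5 and 66.2 CPM in LOC401312, against 78.1, 75.8 and 75.3 CPM in vector. The groups did not overlap, and LOC401312 replicate 1 was the lowest of the 6 libraries. The means were 62.8 ± 3.89 CPM in LOC401312 and 76.4 ± 1.51 CPM in vector (SD, n = 3 each), a log2 change of -0.28 (SE 0.05, adjusted p = 0.00884) and a level 0.821 of that in vector (95% interval 0.757 to 0.891).

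CAB39 (ENSG00000135932; chromosome 2, 230712842 to 230821075, plus strand) encodes MO25, the scaffold that clamps LKB1 and STRAD in their active form. It had 50.7, 56.0 and 59.0 CPM in LOC401312, against 66.6, 64.5 and 63.3 CPM in vector. The groups did not overlap, and the order of the LOC401312 libraries was that of NFE2L2. The log2 change was -0.23 (SE 0.06, adjusted p = 0.0382), a level 0.852 of that in vector (95% interval 0.778 to 0.934). Of the 6 fits that each left out a library, CAB39 passed in 1, without LOC401312 replicate 3 (adjusted p = 0.0405), and its adjusted p was up to 0.123 without one of the others.

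In the deposited FPKM values, which were shifted upward in LOC401312 as a whole (by 0.109 in the median), none of these calls held. With limma on log2(FPKM + 0.1), CUL3 was at -0.17 (adjusted p = 0.132), NFE2L2 at -0.16 (adjusted p = 0.141) and CAB39 at -0.11 (adjusted p = 0.349). With FPKM centred on library medians, added after seeing the data, CUL3 was at -0.28 (adjusted p = 0.0267), NFE2L2 at -0.27 (adjusted p = 0.0389) and CAB39 at -0.21 (adjusted p = 0.106).

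Across all tested features, 13.9% had every LOC401312 library below every vector library, and 3 of the 9 members did. The exact two-sided permutation test over libraries gave p = 0.1 for each of these 3, the smallest value that 3 against 3 allows.

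**Figure D1:**
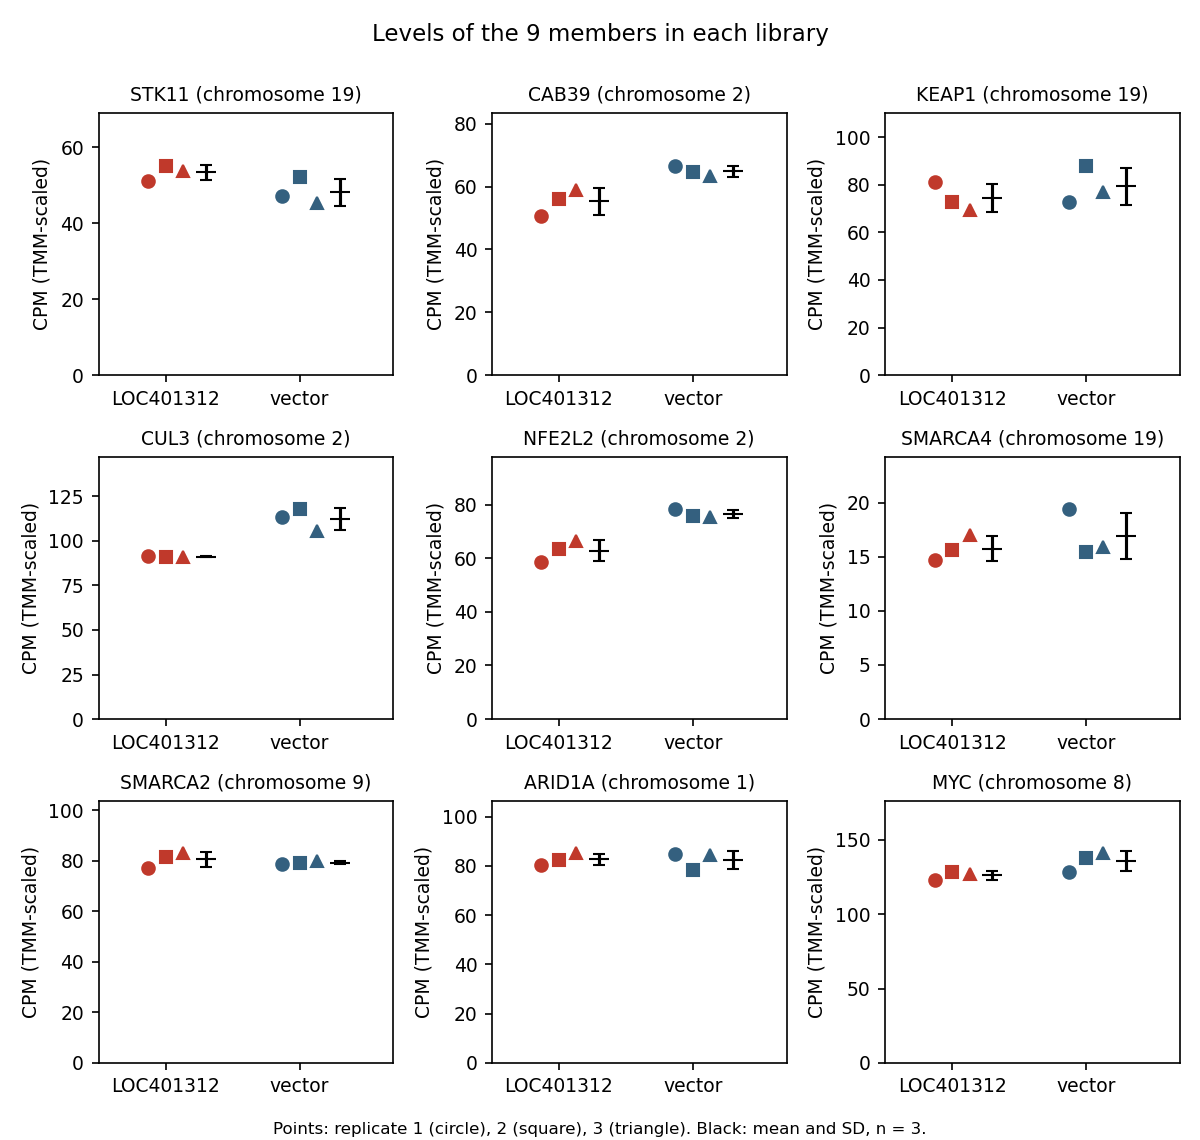
CPM after TMM scaling (vertical axes, from 0) of each member in each library, with LOC401312 on the left and vector on the right; black marks are the mean and SD of 3 libraries. In CUL3, NFE2L2 and CAB39 all LOC401312 libraries lie below all vector libraries, and in the other 6 the groups overlap.

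The fall of the chromosome 2 members was of the size of the chromosome as a whole. The median log2 change of the 780 features of chromosome 2 with a mean of at least 4 CPM was -0.233, and that of 11799 such features on all chromosomes was -0.003. CUL3 (-0.30) had 31.8% of the other chromosome 2 features below it, NFE2L2 (-0.28) 35.8% and CAB39 (-0.23) 51.2%, so each lay in the middle part of its chromosome. NFE2L2 and CUL3 are 47.2 Mb apart, and CUL3 and CAB39 6.13 Mb. Among features within 5 Mb of each gene, the median was -0.19 around CUL3 (19 features, 6 lower and 1 higher), -0.25 around NFE2L2 (33 features, 10 lower and 0 higher) and -0.27 around CAB39 (36 features, 19 lower and 3 higher).

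When the median of each chromosome was removed from each library, none of the 9 members passed in edgeR (3 were at an unadjusted p under 0.05, STK11 and SMARCA2 higher and MYC lower). CUL3 was then at -0.07 (SE 0.05, adjusted p = 0.449), NFE2L2 at -0.06 (SE 0.05, adjusted p = 0.605) and CAB39 at -0.002 (SE 0.06, adjusted p = 0.988). In that fit 6.1% of all features passed, 2.62% as lower. The lower level of chromosome 2 transcripts is a property of these libraries that was known when the members were chosen.

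**Figure D2:**
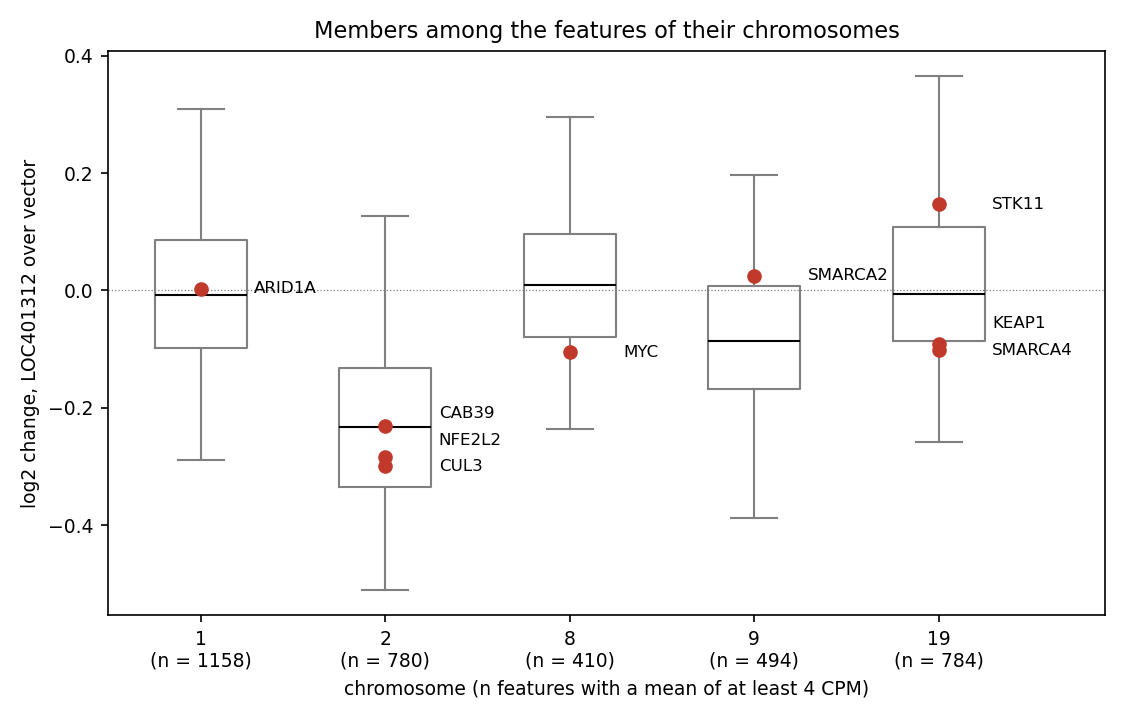
Log2 changes, LOC401312 over vector (vertical axis), of features with a mean of at least 4 CPM on the chromosomes that hold members; boxes show quartiles and median, whiskers the 5th and 95th percentiles, red points the members. CUL3, NFE2L2 and CAB39 lie inside the box of chromosome 2, whose median is -0.233.

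STK11 (ENSG00000118046; chromosome 19, 1177558 to 1228431, plus strand), which encodes LKB1 and carries a nonsense mutation in A549, was still counted in every library. Its level was 51.1, 55.2 and 53.9 CPM in LOC401312, against 47.2, 52.2 and 45.3 CPM in vector. The groups overlapped through vector replicate 2, and the log2 change was 0.15 (SE 0.06, adjusted p = 0.179; 95% interval 0.01 to 0.28, without adjustment for the number of features). It was positive in all other settings tried, between 0.09 and 0.27.

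KEAP1 (ENSG00000079999; chromosome 19, 10486125 to 10503356, minus strand), the sensor that carries a missense mutation in A549, had 81.0, 72.8 and 69.4 CPM in LOC401312, against 72.9, 88.0 and 77.0 CPM in vector. The groups overlapped, and the spread within each was larger than the difference of the means, 74.4 ± 5.96 CPM in LOC401312 and 79.3 ± 7.78 CPM in vector (SD, n = 3 each). The log2 change of -0.09 (SE 0.08, adjusted p = 0.553; 95% interval -0.26 to 0.08) was 0.04 in the deposited FPKM values (limma, adjusted p = 0.806).

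SMARCA4 (ENSG00000127616; chromosome 19, 10960932 to 11079426, plus strand), the ATPase known as BRG1, was the lowest of the members. It had 14.7, 15.6 and 17.0 CPM in LOC401312, against 19.4, 15.5 and 15.9 CPM in vector. Vector replicate 1 stood above the other 5 libraries and also held the highest sums of fibroblast and haematopoietic markers, a relation that was not tested further. The log2 change was -0.10 (SE 0.11, adjusted p = 0.642; 95% interval -0.34 to 0.13), and 0.01 (adjusted p = 0.973) without vector replicate 1. SMARCA4 and KEAP1 lie 0.458 Mb apart.

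SMARCA2 (ENSG00000080503; chromosome 9, 1980290 to 2193624, plus strand), the paralogue known as BRM, had 77.1, 81.7 and 83.0 CPM in LOC401312, against 78.6, 79.3 and 79.8 CPM in vector. The LOC401312 libraries lay on both sides of the vector libraries, and the log2 change was 0.02 (SE 0.04, adjusted p = 0.816; 95% interval -0.07 to 0.12). On chromosome 9, whose median was -0.086, SMARCA2 stood above 78.3% of the other features, and with chromosome medians removed it was at 0.11 (adjusted p = 0.194).

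ARID1A (ENSG00000117713; chromosome 1, 26693236 to 26782104, plus strand) had 80.5, 82.3 and 85.1 CPM in LOC401312, against 84.8, 78.1 and 84.5 CPM in vector. The groups overlapped fully, with a log2 change of 0.003 (SE 0.05, adjusted p = 0.981; 95% interval -0.10 to 0.11).

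MYC (ENSG00000136997; chromosome 8, 127735434 to 127741434, plus strand) had 122.9, 128.7 and 126.7 CPM in LOC401312, against 128.2, 137.9 and 141.0 CPM in vector. The groups touched, since LOC401312 replicate 2 lay just above vector replicate 1. The log2 change was -0.11 (SE 0.05, adjusted p = 0.215; 95% interval -0.21 to -0.001, without adjustment for the number of features), and it was 0.02 in the deposited FPKM values (limma, adjusted p = 0.736).

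**Figure D3:**
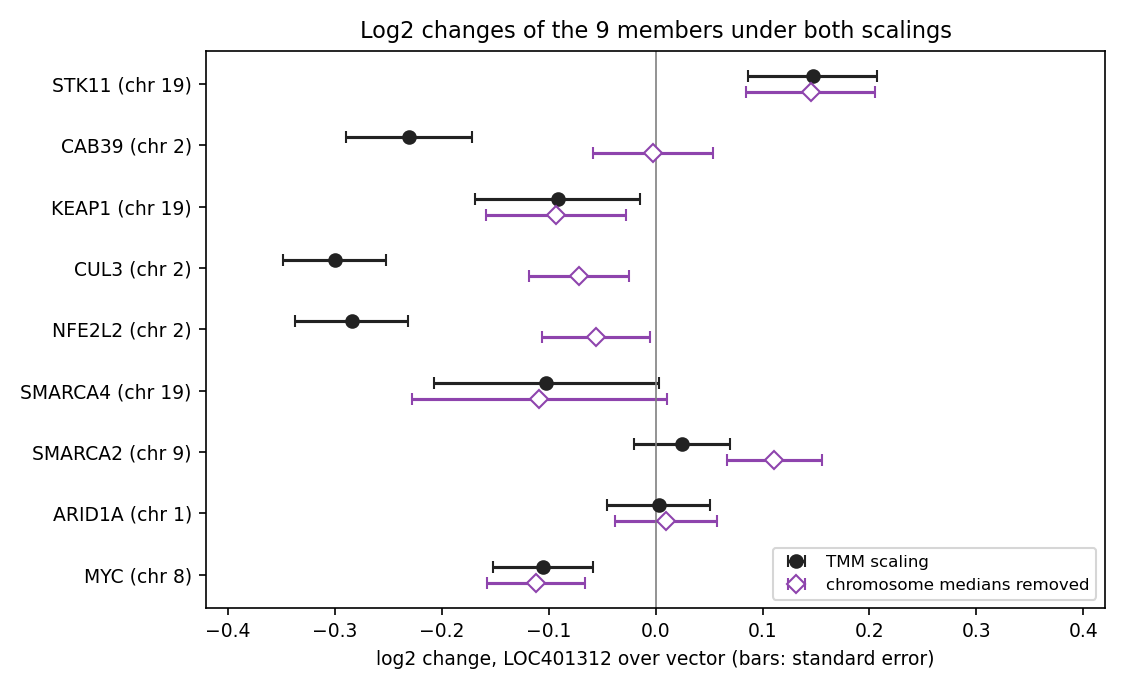
Log2 changes of the 9 members, LOC401312 over vector (horizontal axis; bars are standard errors), with TMM scaling (black) and with chromosome medians removed (open purple). CUL3, NFE2L2 and CAB39 move from -0.30, -0.28 and -0.23 to -0.07, -0.06 and -0.002, and members of chromosomes 1, 8 and 19 keep their positions.

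The members also differed in level per transcript length. The deposited FPKM (fragments scaled to transcript length and library size) of MYC was 23.5 to 24.4 over the 6 libraries and that of KEAP1 16.8 to 20.1. NFE2L2 followed at 9.17 to 11.6 FPKM and CAB39 at 8.40 to 10.4 FPKM, and these ranges overlapped. CUL3 had 6.85 to 8.28 FPKM. STK11 (4.02 to 5.44 FPKM), ARID1A (3.85 to 4.62 FPKM) and SMARCA2 (3.34 to 3.86 FPKM) came next, each overlapping its neighbour in that order. SMARCA4, at 0.77 to 1.03 FPKM, lay below all of them.

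The length in these FPKM values is long for several members. The ratio of counts to FPKM implies 10.4 kb for STK11 and 18.7 kb for SMARCA4, close to the merged exons of all their GENCODE release 29 transcripts (8.64 and 15.8 kb) and above their principal transcripts (2.61 and 5.79 kb). Per kilobase of principal transcript, STK11 had 17.3 to 21.1 CPM and ranked 4 of 9 by median, where it ranked 6 of 9 in FPKM. Its range overlapped those of NFE2L2 (20.5 to 27.4 CPM per kb), CAB39 (13.3 to 17.4 CPM per kb) and CUL3 (13.5 to 17.4 CPM per kb). SMARCA4 was lowest on both scales, at 2.53 to 3.35 CPM per kb, against 13.1 to 14.1 CPM per kb for SMARCA2.

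Ratios of partner members within a library do not depend on library scaling. They were compared for 4 pairs by exact two-sided permutation tests over libraries, whose smallest possible p is 0.1. They show unequal change, not which partner changed. CAB39/STK11, CUL3/KEAP1 and NFE2L2/KEAP1 each set a gene of chromosome 2 over a gene of chromosome 19. The median log2 changes of these chromosomes were -0.233 and -0.007, and their part in the ratios was not tested. The counts of CAB39 to STK11 stood at 0.992, 1.02 and 1.10 in LOC401312, against 1.41, 1.24 and 1.40 in vector, with no overlap, a log2 difference of -0.38 (exact p = 0.1, 0.2 adjusted over the pairs). The counts of CUL3 to KEAP1 stood at 1.13, 1.25 and 1.31 in LOC401312, against 1.56, 1.34 and 1.37 in vector, with no overlap, a difference of -0.21 (exact p = 0.1, 0.2 adjusted). The ratio of NFE2L2 to KEAP1 overlapped, at 0.723, 0.872 and 0.955 in LOC401312 and 1.07, 0.862 and 0.978 in vector, a difference of -0.19 (exact p = 0.3, 0.4 adjusted). The ratio of SMARCA2 to SMARCA4 also overlapped, at 5.26, 5.23 and 4.88 in LOC401312 and 4.05, 5.12 and 5.03 in vector, a difference of 0.12 (exact p = 0.5, 0.5 adjusted). SMARCA2 thus had 4.88-fold or more the counts of SMARCA4 in 5 of the 6 libraries, and in vector replicate 1 it had 4.05-fold.

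**Figure D4:**
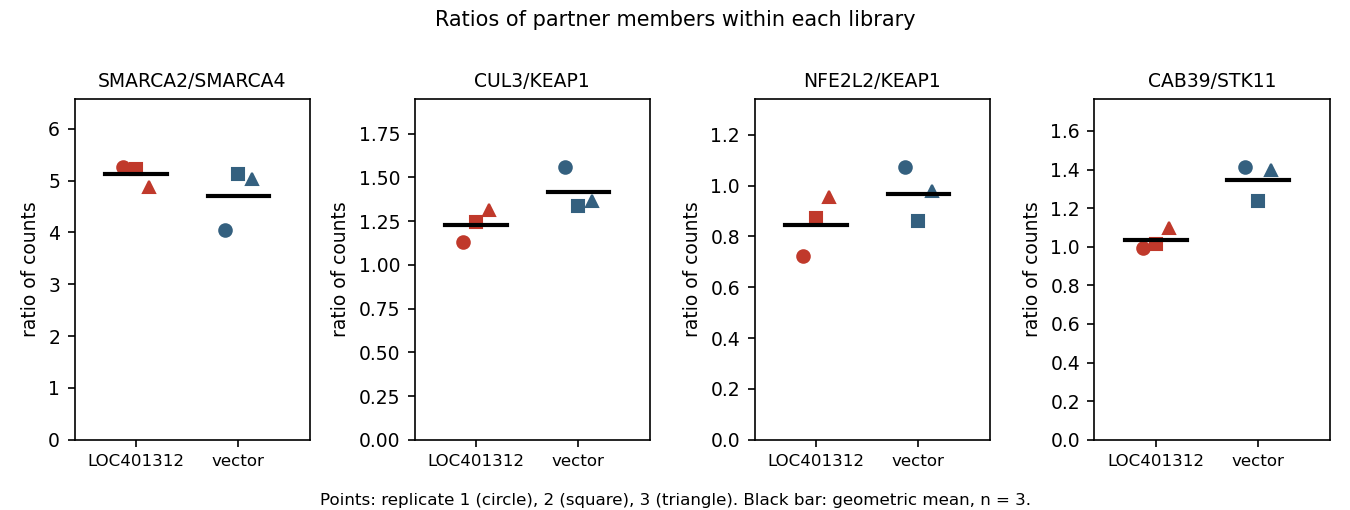
Ratio of the counts of 2 partner members within each library (vertical axes, from 0), LOC401312 on the left and vector on the right; bars are geometric means of 3 libraries. CAB39/STK11 and CUL3/KEAP1, each a gene of chromosome 2 over a gene of chromosome 19, are lower in all LOC401312 libraries than in all vector libraries. The other pairs overlap.

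By Pearson correlation of log2 CPM over the 6 libraries, among 9884 features with a mean of at least 10 CPM, the pattern of CUL3 was most like that of UBQLN1 (0.998), PPIL1 (0.995) and TTLL4 (0.993). That of NFE2L2 was most like RSL1D1 (0.999), TMEM123 (0.997) and NLN (0.997), and that of CAB39 most like RTKN (0.996), EIF4G2 (0.994) and FERMT1 (0.994). TTLL4 and RTKN lie on chromosome 2 and the other 7 on other chromosomes. Between members the values were 0.987 for CAB39 with NFE2L2, 0.897 for CUL3 with NFE2L2 and 0.842 for CUL3 with CAB39. The 6 points share libraries and the difference between groups, so these values describe likeness only.

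Genes around the members were read from 9 lists with 197 tested genes, of which 11 rose and 32 fell, 20 of the falls in NRF2 targets. Over all tested features 4.13% rose and 4.58% fell, and off chromosome 2 3.01% fell, so a list with 1 called gene of 13 to 34 is near that background. Of the 14 on chromosome 2, 7 fell and 0 rose. Of the 183 on other chromosomes, 25 fell and 11 rose. The median log2 change of all tested features was -0.001.

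In the system of KEAP1 and CUL3, most of the ligase machinery did not pass the test. Of 13 genes of the ligase and KEAP1-binding proteins, 1 rose and 0 fell, with a median of 0.03. The one was CAND1, which exchanges the adaptors of cullins, at 0.18 (SE 0.04, adjusted p = 0.0277), with 221.3 ± 5.93 CPM in LOC401312 and 195.0 ± 7.97 CPM in vector (SD, n = 3 each). CAND1 lies on chromosome 12 and did not pass with chromosome medians removed (0.07, adjusted p = 0.426), nor without any one of vector replicates 2 and 3 and LOC401312 replicates 2 and 3 (adjusted p up to 0.124). RBX1, the RING subunit of the ligase, was at -0.01 (adjusted p = 0.962), and SQSTM1, the autophagy receptor that binds KEAP1, at 0.002 (adjusted p = 0.986). Among 34 other BTB-domain adaptors of CUL3, 1 rose and 0 fell, with a median of 0.02. RHOBTB2 rose by 0.32 (SE 0.04, adjusted p = 0.00173), with 74.6 ± 0.523 CPM in LOC401312 and 59.6 ± 1.99 CPM in vector.

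Of 13 tested relatives, partners and regulators of NRF2, 3 rose and 0 fell, with a median of -0.01. NFE2L3, a relative of NRF2, rose by 0.55 (SE 0.09, adjusted p = 0.00385), with 24.0 ± 0.848 CPM in LOC401312 and 16.4 ± 1.62 CPM in vector (SD, n = 3 each). BACH1, which represses NRF2 targets such as HMOX1, rose by 0.35 (SE 0.08, adjusted p = 0.0254), and GSK3B, a kinase that marks NRF2 for degradation apart from KEAP1, by 0.17 (SE 0.04, adjusted p = 0.0422). BACH1 and GSK3B each passed in 1 of the 6 fits that left out a library, the one without vector replicate 1, with adjusted p up to 0.101 and 0.175 in the others. Of 32 NRF2 targets, 20 fell and 1 rose, with a median of -0.24, and all 20 lie on chromosomes other than 2. With chromosome medians removed, 19 were lower, 0 higher, and the median stayed at -0.24. HMOX1, which degrades haem, was at -0.90 (SE 0.05, adjusted p = 1.47e-05), the reductase AKR1B10 at -0.45 (SE 0.03, adjusted p = 5.87e-05) and the peroxidase GPX2 at -0.88 (SE 0.07, adjusted p = 7.11e-05). TXNRD1, a thioredoxin reductase on chromosome 12, was the 1 target that rose, by 0.15 (adjusted p = 0.0252), and its change was below the threshold with chromosome medians removed (0.03, adjusted p = 0.628).

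In the system of LKB1, 3 of 21 genes of the complex and the AMPK family rose and 2 fell, with a median of -0.01. The salt-inducible kinase SIK2 rose by 0.39 (SE 0.05, adjusted p = 0.00149), with 52.6 ± 2.43 CPM in LOC401312 and 40.0 ± 1.12 CPM in vector (SD, n = 3 each). NUAK1, another kinase that LKB1 activates, rose by 0.51 (SE 0.09, adjusted p = 0.00568), and its relative NUAK2 fell by 0.24 (SE 0.04, adjusted p = 0.00841). In the deposited FPKM, which were shifted upward in LOC401312 as a whole, NUAK2 was at -0.11 (limma, adjusted p = 0.18). With FPKM centred on library medians, NUAK2 was at -0.21 (limma, adjusted p = 0.0161). PRKAA2, a catalytic subunit of AMPK, also fell, by 0.42 (adjusted p = 0.0162). PRKAB1, a regulatory subunit of AMPK on chromosome 12, was the third gene that rose, by 0.23 (adjusted p = 0.0349), and with chromosome medians removed it was at 0.11 (adjusted p = 0.308). Of the LKB1 partners, STRADA was at -0.01 (adjusted p = 0.939) and CAB39L, the paralogue of CAB39, at -0.03 (adjusted p = 0.958) with 2.97 ± 0.662 CPM in LOC401312 and 3.03 ± 0.377 CPM in vector. STRADB, on chromosome 2, was at -0.21 (adjusted p = 0.109).

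CRTC coactivators enter the nucleus when salt-inducible kinases are inactive, as in cells without LKB1, and work with CREB. Of 12 tested CRTC and CREB genes and targets, 2 rose and 2 fell, with a median of -0.02. The nuclear receptor NR4A1 fell by 0.38 (SE 0.07, adjusted p = 0.01), with 15.9 ± 0.207 CPM in LOC401312 and 20.7 ± 0.652 CPM in vector (SD, n = 3 each). The phosphodiesterase PDE4B rose by 0.25 (SE 0.05, adjusted p = 0.0118). The coactivator PPARGC1A rose by 1.18 (SE 0.26, adjusted p = 0.0198) at a low level, 4.02 ± 0.271 CPM in LOC401312 and 1.77 ± 0.652 CPM in vector. CREB1, on chromosome 2, was the other that fell, by 0.25 (adjusted p = 0.0336). With chromosome medians removed it was at -0.02 (adjusted p = 0.919). Leaving out 1 library ended the calls of NR4A1 (vector replicate 3, adjusted p = 0.0521), PDE4B (LOC401312 replicate 1 or 2 or vector replicate 3, up to 0.0806) and PPARGC1A (any LOC401312 library or vector replicate 3, up to 0.0786). In the deposited FPKM, with their upward shift in LOC401312, NR4A1 was at -0.24 (limma, adjusted p = 0.0872) and PPARGC1A at 0.91 (adjusted p = 0.0625). With FPKM centred on library medians, NR4A1 was at -0.34 (limma, adjusted p = 0.0304) and PPARGC1A at 0.81 (adjusted p = 0.101).

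Of 25 tested subunits of the SWI/SNF complexes, none passed in either direction with edgeR, with log2 changes between -0.15 and 0.28 and a median of 0.06. At an unadjusted p under 0.05 there were 5 higher and 3 lower, and DESeq2 called 2 higher and 0 lower. The smallest p belonged to ACTB, at 0.11 (SE 0.03, adjusted p = 0.0841), and to SMARCD1, at 0.14 (SE 0.04, adjusted p = 0.0858). The DESeq2 calls were ACTB (adjusted p = 0.0222) and BRD9, a subunit of the non-canonical complex, and ACTB shares sequence with processed pseudogenes. Other settings called single subunits too. ACTB passed with total-count scaling (edgeR, adjusted p = 0.0158) and SMARCD1 among features with a mean of at least 10 CPM (0.0375) and without vector replicate 1 (0.0459). Both also passed in the deposited FPKM, which were shifted upward in LOC401312 (limma, adjusted p = 0.0217 for ACTB and 0.0326 for SMARCD1). With FPKM centred on library medians, ACTB was at 0.13 (limma, adjusted p = 0.099). SMARCD1 lies on chromosome 12 and was at 0.02 with chromosome medians removed (edgeR, adjusted p = 0.826). ARID1B, the paralogue of ARID1A, was at 0.08 (adjusted p = 0.512). No gene of this list lies on chromosome 2.

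In the system of MYC, 1 of 18 tested genes of its dimer network and regulators fell and 0 rose, with a median of -0.05. MXI1, which competes with MYC for MAX, fell by 0.32 (SE 0.09, adjusted p = 0.0448). It missed the threshold in each of the 6 fits that left out a library (adjusted p 0.0709 to 0.143). In the deposited FPKM, with their upward shift in LOC401312, MXI1 was at -0.18 (limma, adjusted p = 0.227). MAX itself was at -0.11 (adjusted p = 0.245). Of 29 MYC targets, 7 fell and 0 rose, with a median of -0.02. Of the 8 on chromosome 2, 6 fell, and of the 21 elsewhere 1 fell. The nucleolar protein NCL was at -0.35 (SE 0.03, adjusted p = 0.000228), and the mitochondrial chaperone genes HSPE1 and HSPD1, which are neighbours, at -0.72 (SE 0.07, adjusted p = 0.000304) and -0.25 (SE 0.03, adjusted p = 0.000754). In the deposited FPKM, with their upward shift in LOC401312, HSPD1 was at -0.12 (limma, adjusted p = 0.0904). HSPE1 shares exons with a readthrough entry, so its own count is uncertain. With chromosome medians removed, NCL was at -0.12 (adjusted p = 0.0664), HSPD1 at -0.02 (adjusted p = 0.739) and HSPE1 at -0.49 (adjusted p = 0.00441), and 2 of the 29 targets were lower and 1 higher. That last one was ODC1, an enzyme of polyamine synthesis on chromosome 2, at -0.004 (adjusted p = 0.97) before and 0.22 (adjusted p = 0.00617) after the removal. TERT, the telomerase subunit on chromosome 5, was the fall outside chromosome 2, at -0.74 (SE 0.17, adjusted p = 0.0239) with 3.07 ± 0.574 CPM in LOC401312 and 5.13 ± 0.247 CPM in vector (SD, n = 3 each).

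**Figure D5:**
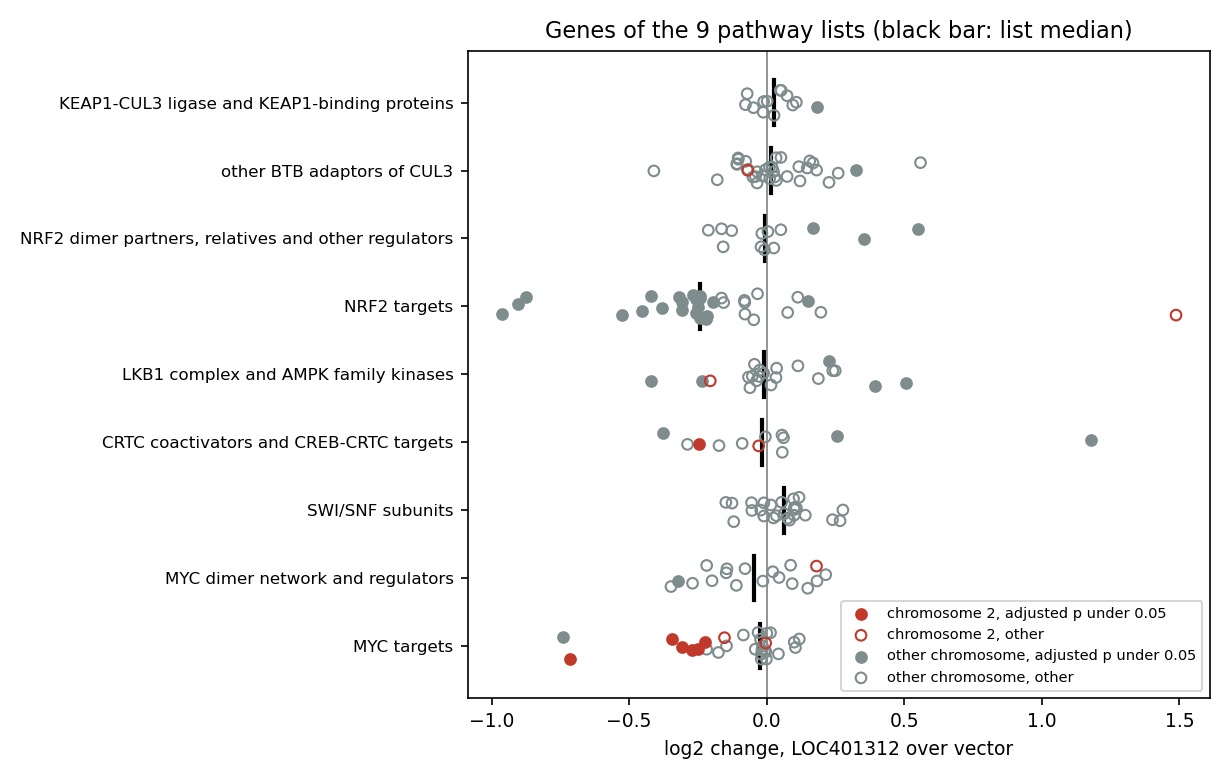
Log2 changes, LOC401312 over vector (horizontal axis), of the tested genes of the 9 lists (rows), red on chromosome 2, grey elsewhere, filled where the adjusted p is under 0.05; black bars are list medians. NRF2 targets have a median of -0.24 with no filled red point, and 6 of the 7 filled points among MYC targets are red.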

How the data were processed

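The authors deposited 1 table for the 6 libraries, with raw counts and FPKM side by side, per the file headers. As deposited, counts are whole and not normalized. The FPKM values are the authors' own, per the file headers, and their length and total are not defined there. The submitters' processing notes name cutadapt 1.9, FastQC and GRCh38 (hg38). No source read here names the aligner, the counter, the annotation release or the strand setting, and overlapping antisense genes therefore cannot be told apart. Groups were taken from the sample titles.

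The whole count table was fitted in R 4.3.3 with edgeR 4.0.16 (quasi-likelihood test, TMM, filterByExpr, no covariate), as planned for counts. Every adjusted p of a gene comes from that fit, over 19620 features at a threshold of 0.05, unless another tool or setting is named. Other settings, such as fits that left out a library, adjust over the features tested in them. An SE is the size of the log2 change over the root of its F statistic. Intervals of single members are not adjusted for the number of features. To remove chromosome medians, the median deviation of each chromosome's features (mean of at least 4 CPM) entered each library's offset. Totals ran between 60971105 and 73994619 counts per library, and the biological coefficient of variation was 17.0%. Chi-square per degree of freedom between libraries of a group was 13.7 to 22.9, more than counting noise gives, so no library is a second deposit of another. Whether the libraries are biological replicates is not shown by this. The fits were tested on simulated data with known changes.

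Alternatives were DESeq2 1.42.0, other scalings and filters, a replicate block, leaving out libraries, and limma 3.58.1 on log2(FPKM + 0.1) or other pseudocounts. FPKM centred on library medians was added after the data were seen. The text names all members, from each list up to 3 called genes by p (2 if none was called), and the 3 features most like each called member. Further genes (CAB39L, STRADA, STRADB, RBX1, SQSTM1, PRKAA2, PRKAB1, CREB1, TXNRD1, ARID1B, BRD9, MAX, ODC1 and TERT) were picked after their values were seen. Members, lists and markers were chosen with earlier results of these data known. LINC00473 and SFTPA1 were not analysed here.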

Additional observations from a re-analysis of the deposited data

How the results depend on the processing

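The number of members called lower was 3, and 2 or 3 without 1 library. It was 0 with chromosome medians removed, 0 without both LOC401312 libraries whose genotype labels name other loci, and 0 in each limma fit of uncentred FPKM, which were shifted by 0.109 (median log2 difference over 6137 well-expressed features, -0.016 in their counts). With FPKM centred on library medians, an alternative added after seeing the data, it was 2. In the limma fits the shift is part of the values; the cause of the shift was not tested. Removing 2 libraries leaves LOC401312 with 1, assumed to vary like vector, where the changes of CUL3, NFE2L2 and CAB39 were -0.29, -0.38 and -0.35. No setting called a member higher.

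Members that were not called changed sign in some settings. In the limma fits of FPKM (pseudocounts 0.1, 1 and 0.01, and mean of at least 5) KEAP1 was at 0.0355, 0.0339, 0.0357 and 0.0355, and MYC at 0.0211, 0.0203, 0.0211 and 0.0211. SMARCA4 was at 0.0239, 0.0102 and 0.0274 with the 3 pseudocounts and between -0.161 and 0.00794 without 1 library. ARID1A was between -0.0335 and 0.0232 without 1 library. Without both libraries whose labels name other loci, KEAP1 was at 0.0327, SMARCA2 at -0.0368 and ARID1A at -0.0329.

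Over all features, 811 were higher and 899 lower. Without 1 library, 393 to 963 were higher and 439 to 1042 lower. The counts were 1246 higher with DESeq2, 577 lower with no filter, 84 higher and 91 lower without both relabelled libraries, and 514 lower with chromosome medians removed. With limma on FPKM they were 1599 and 308 (pseudocount 0.1), 1584 and 303 (1), 1573 and 297 (0.01), and 1618 and 288 (mean of at least 5), higher and lower. Total-count scaling gave 999 higher and 754 lower.

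The replicate numbers were not taken as pairs, and same-numbered libraries had correlations of -0.179, -0.007 and -0.098. These used deviations from the mean of each group of 3 libraries, so they cannot exclude pairing. With the number as a block, 509 were higher and 579 lower, CUL3 and NFE2L2 passed (adjusted p = 0.0219 and 0.0397, edgeR), and CAB39 did not (-0.23, adjusted p = 0.0984). CAB39 also missed the threshold with no filter (0.0998) and total-count scaling (0.0707). The ratios of partner members kept their direction in all settings run. Without 1 library they were 0.0123 to 0.181 for SMARCA2/SMARCA4, -0.256 to -0.140 for CUL3/KEAP1, -0.283 to -0.0830 for NFE2L2/KEAP1 and -0.443 to -0.348 for CAB39/STK11.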
